A study of Mus musculus with 18 samples.

Results

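The step from 0.3 to 1.0 µM of MG132 was examined in mock mouse embryonic fibroblasts, with 3 libraries at each dose, so that 6 of the 18 libraries of the series enter the comparison. MG132 is a peptide aldehyde that blocks the proteasome, and the cells had been exposed to it for 12 h. The mock cells are an immortalised line of the genotype MafF-/-::MafG-/-::MafK-/-, which lacks all small Maf proteins, the partners that Nrf1 and Nrf2 need to bind DNA. They carry no T-N1G. Set beside the step are the 3 mock libraries given vehicle for 12 h and, for the same step in another line, 3 libraries at each dose of cells with the same deletions that express T-N1G, a tether of Nrf1 to MafG. Nothing in the labels tells whether the 3 libraries at a dose are separate cultures, so that a p-value rests on their spread alone, and that spread may be technical. Levels are CPM, a gene's fragments scaled to a common library size with TMM, given in the order of libraries 1, 2 and 3.

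The proteasome degrades ubiquitin-tagged proteins, and its inhibition leaves damaged and short-lived proteins to accumulate. Cells are known to answer with heat shock factors, which raise chaperones, with ATF4 and CHOP, which raise amino acid and stress genes, and with Nrf1, which with a small Maf partner raises the proteasome subunits. Strong or prolonged inhibition can lead to cell death. The question put to the data was what the higher dose adds to, or takes back from, the state at the lower dose.

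The libraries held 19978399 to 20493873 fragments at 0.3 µM, 18751508 to 20739894 at 1.0 µM and 20838875 to 20940594 with vehicle. The libraries at 1.0 µM differed more from each other than those at 0.3 µM. Over 8987 genes at 10 CPM or more, the median SD of log2 CPM was 0.157 at 1.0 µM, 0.0551 at 0.3 µM and 0.0523 with vehicle. The chi-square of counts over genes, divided by its degrees of freedom, ran from 26.1 to 42.0 for pairs of libraries at 1.0 µM and from 2.82 to 3.63 at 0.3 µM. Fibroblast markers were present (Col1a1 at 2386 ± 149 CPM at 0.3 µM and 1210.5 ± 28.8 at 1.0 µM, mean ± SD, n = 3), while Lum, a dermal and corneal proteoglycan, had 0 fragments at both doses. The 14 fibroblast markers summed to between 7720 and 8279 CPM at 0.3 µM and to between 4365 and 5541 at 1.0 µM, most of it Col1a1, Col1a2 and Vim. Of 13 tested, 2 were higher in the step and 5 lower, where 21.8% of all genes were higher and 27.8% lower. The mean of Thy1 went from 338 to 501 CPM, and Fap had 7 and 12 fragments at the 2 doses. The 9 leukocyte markers summed to between 4.89 and 5.26 CPM at 0.3 µM and to between 4.75 and 4.90 at 1.0 µM. Of 3 tested, 1 was higher and 0 were lower. In fragments per group, Ptprc went from 3 to 31, Itgam from 3 to 15 and Csf1r from 11 to 27. Cd68, most of the sum, went from 279 to 197, Lyz2 from 7 to 2 and Cd79a from 6 to 3. Cd3e and Tyrobp had 0 at both doses. Bulk RNA cannot tell a change in the RNA of each cell from a change in the share of cells that hold it.

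Of 13258 genes tested, 2895 were higher at 1.0 than at 0.3 µM (21.8% of those tested) and 3682 were lower (27.8%), at an adjusted p under 0.05 in edgeR's quasi-likelihood test. With DESeq2 size factors 3325 were higher and 3016 lower. With TMM kept, the 9 mock libraries alone gave 3333 higher and 3190 lower, and the 6 libraries compared gave 2800 and 2623. Which direction held more genes thus depended on the scaling and on the libraries fitted. Changes of 2-fold or more were mostly upward. By 2-fold or more, 1122 genes rose (8.46%) and 202 fell (1.52%). The median log2 change of all genes tested was -0.04. Of the 35 gene groups with 10 or more members tested, 20 had a larger share of higher members than all genes. The 8 largest shares were those of growth factors (17 of 22), AP-1 and immediate-early genes (20 of 26), interferon-stimulated genes (17 of 24), MAPK phosphatases (12 of 18), 3 chaperone groups (13 of 24 HSP40 and BAG co-chaperones, 7 of 13 HSP90s and small HSPs, 6 of 12 HSP70s) and matrix proteases (12 of 26). Mitotic, sterol and respiratory chain genes lay mostly on the lower side.

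**Figure D1:**
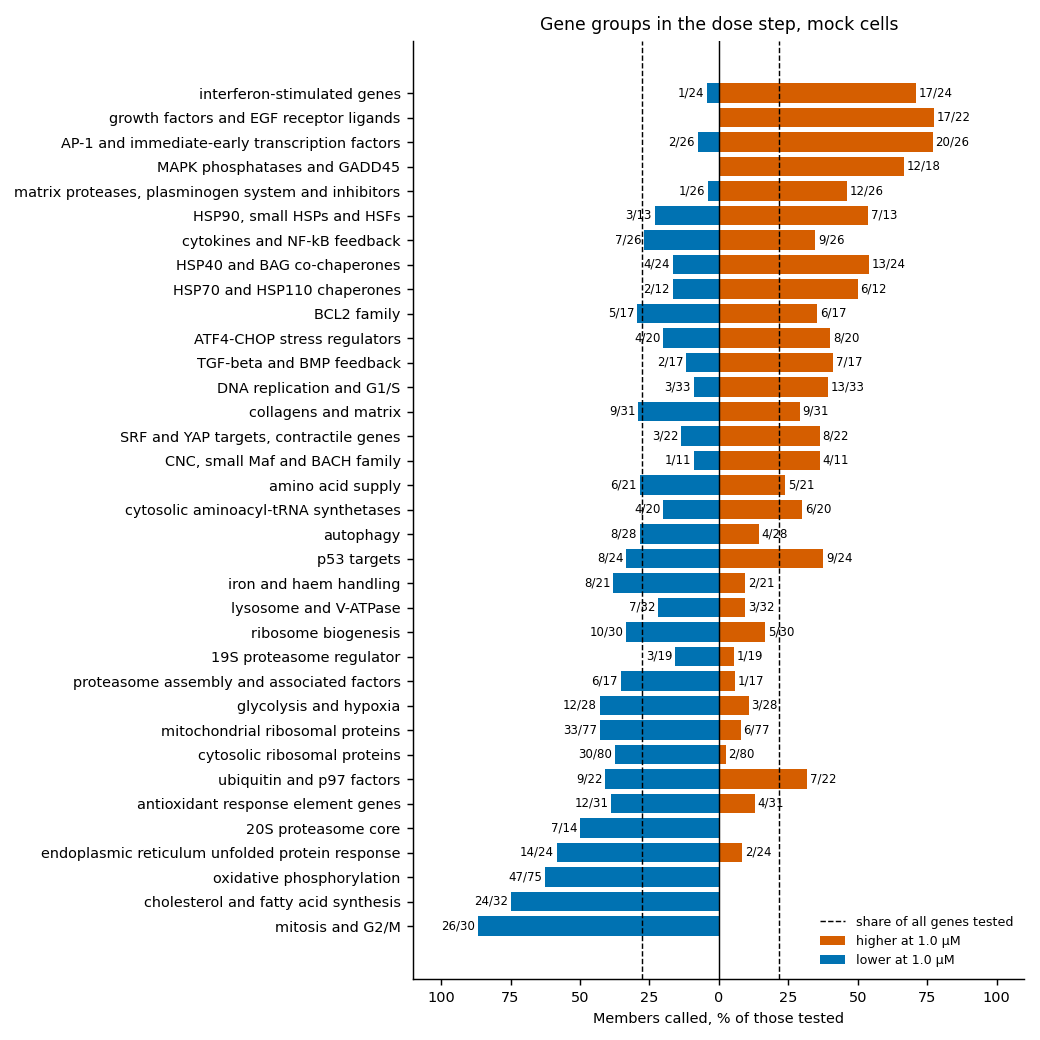
Share of tested members called higher (right, orange) or lower (left, blue) at 1.0 than at 0.3 µM MG132 in mock cells, for the 35 gene groups with 10 or more members tested, sorted by their median log2 change; numbers give members called of members tested and dashed lines mark 21.8% and 27.8%, the shares over all genes. Interferon-stimulated genes had 17 of 24 members higher, and mitosis genes had 26 of 30 lower.

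Interferon-stimulated genes encode antiviral effectors and sensors. They are known to be switched on by a protein complex with STAT2 and IRF9 that binds an interferon-stimulated response element in their promoters. In mock cells, 17 of the 24 members tested were higher in the step and 1 was lower, with a median log2 change of 1.69 against -0.04 over all genes. At 0.3 µM against vehicle, 1 of the 24 was higher and 0 were lower, while over all genes 25.0% were higher and 28.1% lower in that comparison, which shares the libraries at 0.3 µM with the step. The only member called there was Rsad2, a radical-SAM enzyme that blocks viral replication. The few calls do not show that the lower dose left the group unchanged. All groups share 1 estimate of the spread, and these genes spread widely at 1.0 µM. The mean log2(CPM + 1) over the 24 members was 2.83, 2.55 and 2.69 with vehicle and 3.06, 2.82 and 2.97 at 0.3 µM.

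Promoters of 2 of these genes are shown because they hold the response element in repeated form. A search of RefSeq promoter windows (build GRCm38.p6, 250 bases before to 50 after the start site) for GAAANNGAA on both strands, a core chosen after the gene values had been seen, found it in 10 of the 20 members with a window and in 9.76% of 27025 genes. The windows lie at chr4:156200769-156201068, minus strand (Isg15), and chr19:34640639-34640938, plus strand (Ifit1), and capitals mark the match on either strand, with overlapping matches joined.
Isg15: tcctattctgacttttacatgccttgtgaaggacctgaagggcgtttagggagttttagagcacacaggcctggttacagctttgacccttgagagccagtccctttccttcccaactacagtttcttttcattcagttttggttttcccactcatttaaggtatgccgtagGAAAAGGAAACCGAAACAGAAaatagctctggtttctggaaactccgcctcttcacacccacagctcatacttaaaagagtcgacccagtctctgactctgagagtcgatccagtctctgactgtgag
Ifit1: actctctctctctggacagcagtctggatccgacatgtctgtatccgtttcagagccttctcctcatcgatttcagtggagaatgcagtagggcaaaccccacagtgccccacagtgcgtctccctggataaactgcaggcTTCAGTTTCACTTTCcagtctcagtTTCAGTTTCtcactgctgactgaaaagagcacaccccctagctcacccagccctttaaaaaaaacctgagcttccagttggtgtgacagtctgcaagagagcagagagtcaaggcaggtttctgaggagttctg

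Usp18, which removes ISG15 from proteins and dampens interferon signalling (mm9 chromosome 6: 121195924 to 121220935), had 1.01, 0.555 and 0.593 CPM with vehicle, 1.79, 1.08 and 1.32 at 0.3 µM and 33.0, 5.70 and 54.6 at 1.0 µM. All 3 libraries at 1.0 µM were above all at 0.3 µM, but library 2 was far below the other 2 (log2 4.48, SE 0.94, adjusted p = 0.00159). Mx2, a dynamin-like antiviral GTPase, had 1.44, 1.13 and 1.76 CPM at 0.3 µM and 28.2, 4.59 and 45.4 at 1.0 µM, in the same order of libraries (log2 4.17, SE 0.95, adjusted p = 0.00284). Isg15 itself, the ubiquitin-like modifier (chromosome 4: 155573533 to 155574927), rose from 4.32, 2.79 and 3.999 to 20.1, 6.86 and 27.2 CPM (log2 2.28, SE 0.57, adjusted p = 0.00504). Irf7, the factor that amplifies the response, rose from 3.23, 1.66 and 2.93 to 14.8, 4.49 and 22.7 CPM (log2 2.43, SE 0.69, adjusted p = 0.0109). Bst2, the membrane tether of budding viruses, rose from 37.6, 30.1 and 34.6 to 148, 47.7 and 208 CPM (log2 1.98, SE 0.56, adjusted p = 0.0101).

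Irf9 and Stat2, genes of that activating complex, rose as well, by log2 1.79 and 0.94. The cytosolic RNA sensors Ddx58, which encodes RIG-I, and Ifih1, which encodes MDA5, rose by log2 1.56 and 1.62. Among the members not called were the immunoproteasome subunits Psmb8 (log2 1.35, adjusted p = 0.139), Psmb9 (1.18, adjusted p = 0.113) and Psmb10 (-0.17, adjusted p = 0.513). Irf1, an early factor of the interferon gamma branch, was the member that fell (log2 -0.35, SE 0.12, adjusted p = 0.027), a call that was lost under DESeq2 size factors (adjusted p = 0.0639), among the 6 libraries alone (0.105), in DESeq2 (0.0598) and without library 2 of either dose (0.118 and 0.224).

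All 17 members called higher were highest in library 3 and lowest in library 2 at 1.0 µM. The mean log2(CPM + 1) over the 24 members was 4.46, 3.38 and 5.05 in libraries 1 to 3 at 1.0 µM, against 3.06, 2.82 and 2.97 at 0.3 µM. The groups did not overlap, and library 2 at 1.0 µM lay closest to the lower dose. Without library 3 at 1.0 µM, 8 of the 24 were still called higher, with a median of 1.28, and the log2 changes were 3.79 for Usp18 and 3.49 for Mx2. Interferon genes themselves were close to absent. Over 21 type I, II and III interferon genes in the deposited table, looked up after these values had been seen, there were 4 fragments with vehicle, 7 at 0.3 µM and 12 at 1.0 µM over 3 libraries each, and no gene had more than 2 in a library.

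**Figure D2:**
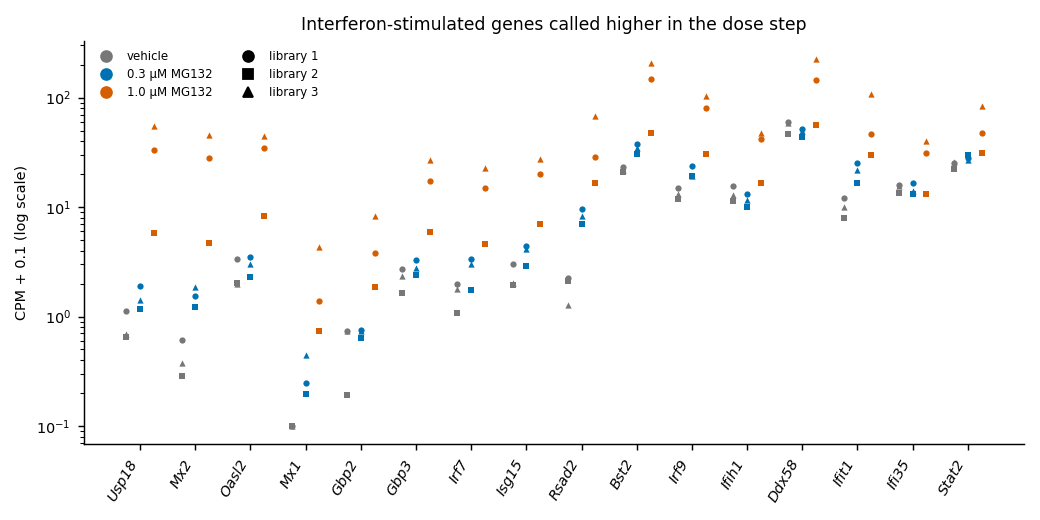
CPM + 0.1 on a log scale for 16 of the 17 interferon-stimulated genes called higher in the step, by library (circle, square and triangle for libraries 1, 2 and 3) and dose (grey vehicle, blue 0.3 µM, orange 1.0 µM). At 1.0 µM the triangle lies highest and the square lowest in all 16 genes shown.

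Immediate-early genes are induced within minutes of growth factor or stress signalling through MAP kinases, and AP-1 is the family of Fos and Jun dimers among them. In the step, 20 of the 26 members tested rose, 13 of them by 2-fold or more, and 2 fell, with a median log2 change of 0.95. The zinc finger factor Egr1 (chromosome 18: 35020861 to 35024610) had 48.1, 39.3 and 52.5 CPM with vehicle, 18.4, 11.1 and 19.9 at 0.3 µM and 241, 111 and 169 at 1.0 µM. The lower dose lay below vehicle in every library and the higher dose above it (log2 3.40, SE 0.45, adjusted p = 5.31e-05). Egr2 went from 1.04, 1.32 and 0.927 to 15.8, 6.18 and 7.05 CPM (log2 3.13, SE 0.48, adjusted p = 7.74e-05) and Egr3 from 2.33, 1.81 and 1.37 to 21.5, 9.08 and 9.74 CPM (log2 2.87, SE 0.42, adjusted p = 5.89e-05).

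Among the AP-1 subunits themselves the step was uneven. Fosb rose from 3.67, 3.52 and 3.17 to 24.6, 15.3 and 10.7 CPM (log2 2.28, SE 0.42, adjusted p = 0.000467), and Fos by log2 1.68 (SE 0.24) and Fosl1 by 1.02 (SE 0.18). Jun and Jund each rose by log2 0.28, and Junb (0.55, adjusted p = 0.0512) and Fosl2 (0.21, adjusted p = 0.208) did not pass the test. Arc, a cytoskeletal immediate-early gene, rose from 10.0, 8.91 and 10.8 to 71.3, 30.6 and 25.9 CPM, and library 1 was well above the other 2 (SE 0.50 on the log2 scale, adjusted p = 0.00368). The orphan nuclear receptors Nr4a2 (log2 1.96) and Nr4a3 (1.87) rose as well. Krüppel-like factors divided. Klf6 rose by log2 0.88, while Klf2, which restrains inflammatory genes, fell from 42.2, 44.1 and 44.2 to 26.5, 24.1 and 22.5 CPM (log2 -0.84, SE 0.12, adjusted p = 2.89e-05) and Klf10 fell by 0.63 on the log2 scale.

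Phosphatases, Sprouty and Spred proteins are feedback brakes of MAP kinase signalling, and their genes were listed together with the GADD45 stress genes. Of 18 phosphatase, Sprouty, Spred and GADD45 genes, 12 rose and 0 fell, with a median log2 change of 0.56. Dusp6, the phosphatase of ERK, rose from 16.2, 15.2 and 15.8 to 64.8, 46.0 and 52.2 CPM, with no overlap between the doses (log2 1.79, SE 0.15, adjusted p = 1.63e-07). Spry4 rose by log2 1.17 (SE 0.21) and Dusp5 by 1.10 (SE 0.19). Gadd45a, already 2.92 above vehicle on the log2 scale at 0.3 µM, rose by a further 0.40.

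Secreted growth factors act on receptors of the same or neighbouring cells. Of 22 tested, 17 rose, 13 of them by 2-fold or more, and 0 fell, with a median log2 change of 1.29. Areg, amphiregulin, a ligand of the EGF receptor (chromosome 5: 91568641 to 91577458), had 0.184, 0.139 and 0.0913 CPM with vehicle, 0.199, 0.196 and 0.390 at 0.3 µM and 5.69, 5.81 and 5.04 at 1.0 µM. The 3 libraries at 1.0 µM lay close together and far above the rest (log2 4.36, SE 0.32, adjusted p = 3.85e-08). The ligands Hbegf (log2 1.63), Tgfa (1.70), Ereg (2.91) and Btc (3.05) rose too, and Egf did not pass the test (-0.32, adjusted p = 0.298). Without library 1 at 0.3 µM the change of Btc was 3.73.

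Inhba, the subunit of activin A, was level at the lower dose and rose only between the doses: it had 38.8, 34.4 and 33.5 CPM with vehicle, 43.5, 37.8 and 36.6 at 0.3 µM and 285, 143 and 196 at 1.0 µM (log2 2.40, SE 0.21, adjusted p = 6.97e-07). The neurotrophic factor Gdnf rose from 1.74, 1.86 and 1.51 to 14.7, 7.02 and 11.8 CPM (log2 2.70, SE 0.40, adjusted p = 4.82e-05), and Bdnf, another neurotrophic factor, rose by log2 1.06. The angiogenic factor Vegfa rose from 38.7, 35.2 and 39.6 to 138, 61.0 and 80.5 CPM, highest in library 1 (log2 1.30, SE 0.30, adjusted p = 0.00266). Igf1, insulin-like growth factor 1, had fallen from 43.0, 45.4 and 52.5 CPM with vehicle to 9.98, 9.94 and 11.9 at 0.3 µM and stood at 26.9, 21.2 and 29.6 at 1.0 µM, between the 2 in every library (log2 1.29, SE 0.20, adjusted p = 6.87e-05).

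Matrix proteases cleave collagen and other extracellular proteins, and the plasminogen system activates many of them. Promoters of 2 collagenolytic or stromelysin genes are printed because an AP-1 site lies close to the start site in each. TGAGTCA or TGACTCA was found in the windows of 4 of 16 members (Mmp10, Mmp12, Mmp13 and Plaur) and in 5.95% of all genes, and in 1 of 19 immediate-early genes with a window (5.26%, Csrnp1). The windows lie at chr9:7502092-7502391, plus strand (Mmp10), and chr9:7272264-7272563, plus strand (Mmp13), and capitals mark the site.
Mmp10: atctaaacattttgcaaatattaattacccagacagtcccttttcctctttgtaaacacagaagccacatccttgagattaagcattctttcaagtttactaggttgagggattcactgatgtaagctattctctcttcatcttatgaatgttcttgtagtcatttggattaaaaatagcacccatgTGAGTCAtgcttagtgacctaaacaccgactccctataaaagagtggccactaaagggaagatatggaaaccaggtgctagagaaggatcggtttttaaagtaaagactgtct
Mmp13: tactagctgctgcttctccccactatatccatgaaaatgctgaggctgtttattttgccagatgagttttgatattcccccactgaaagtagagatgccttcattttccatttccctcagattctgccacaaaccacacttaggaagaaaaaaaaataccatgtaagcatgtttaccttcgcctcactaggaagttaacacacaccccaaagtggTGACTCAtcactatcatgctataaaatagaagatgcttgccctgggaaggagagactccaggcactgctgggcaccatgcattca

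Of 26 members tested, 12 rose and 1 fell, with a median log2 change of 0.56. Serpinb2, the plasminogen activator inhibitor PAI-2 (chromosome 1: 109408000 to 109422177), had 0.184, 0.185 and 0.274 CPM with vehicle, 1.69, 0.783 and 1.27 at 0.3 µM and 50.2, 41.2 and 33.1 at 1.0 µM. Every library at the higher dose was far above every library at the lower (log2 5.05, SE 0.38, adjusted p = 1.24e-07). Mmp10, stromelysin-2 (chromosome 9: 7502342 to 7510242), had no fragment with vehicle, 0.447, 0.392 and 0.390 CPM at 0.3 µM and 19.8, 11.0 and 8.11 at 1.0 µM (log2 4.96, SE 0.41, adjusted p = 9.17e-07). Mmp13, collagenase-3 (chromosome 9: 7272514 to 7283333), rose from 0.943, 0.734 and 1.02 to 13.5, 14.5 and 9.11 CPM (log2 3.77, SE 0.32, adjusted p = 1.6e-07). In the deposited FPKM, a level per length, its mean was 0.0176 with vehicle and 0.351 at 0.3 µM.

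Mmp24 rose by log2 3.37, and Mmp12 by 3.27 at levels of 1.39 CPM or less. Mmp9, gelatinase B, was split by library, at 12.5, 8.47 and 9.95 CPM at 0.3 µM and 42.3, 4.49 and 32.2 at 1.0 µM, so that library 2 of the higher dose lay below the lower dose (log2 1.35, SE 0.52, adjusted p = 0.0455). The urokinase gene Plau, which had fallen to 19.7, 18.4 and 17.6 CPM at 0.3 µM from 29.2, 25.8 and 25.6 with vehicle, rose to 57.5, 46.5 and 49.1 (log2 1.46, SE 0.10, adjusted p = 2.27e-08), and its receptor Plaur rose from 49.2, 45.9 and 48.0 to 156, 104 and 107 CPM (log2 1.36, SE 0.14, adjusted p = 1.39e-06). Adamts2, a procollagen peptidase, was the member that fell (log2 -0.35, SE 0.11, adjusted p = 0.0138), and it was not called among the 6 libraries alone (adjusted p = 0.0802) or without library 1 (0.143) or 2 (0.109) at 1.0 µM. The membrane collagenase Mmp14 (log2 -0.19, adjusted p = 0.358) and the inhibitors Timp2 (-0.26, adjusted p = 0.0602) and Timp3 (0.42, adjusted p = 0.312) did not pass.

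**Figure D3:**
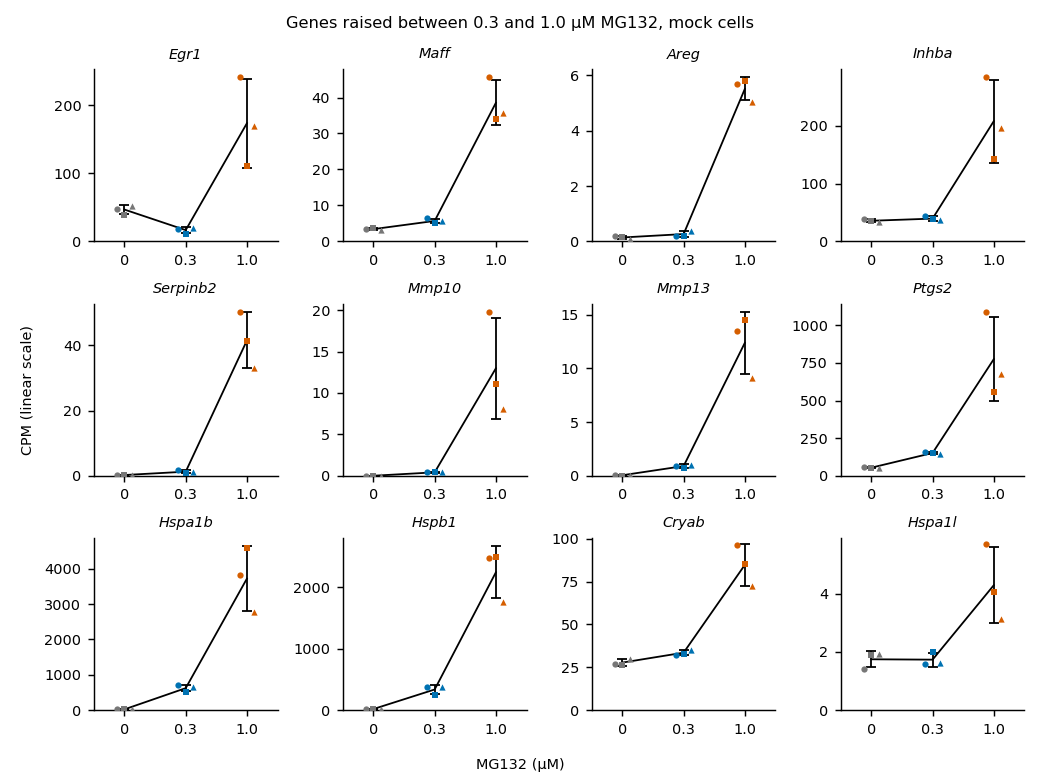
CPM on a linear scale at 0, 0.3 and 1.0 µM MG132 for 12 genes raised in the step; markers are libraries 1 (circle), 2 (square) and 3 (triangle), and lines join means with SD bars (n = 3). On this scale Areg, Inhba, Serpinb2, Mmp10, Mmp13 and Cryab lie low up to 0.3 µM, while the rise of Hspa1b and Hspb1 is visible. Serpinb2, Mmp10 and Mmp13 were also above vehicle at 0.3 µM, with mean FPKM of 0.672 against 0.115, 0.258 against 0 and 0.351 against 0.0176.

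Targets of SRF and YAP, which respond to actin tension, held 8 of 22 members higher and 3 lower in the step (1 lower without library 2 at 0.3 µM). Their shares were 36.4% and 13.6%, against 21.8% and 27.8% of all genes. The matricellular genes led. Ctgf had 433, 339 and 344 CPM at 0.3 µM and 3379, 874 and 1184 at 1.0 µM (log2 2.28, SE 0.54, adjusted p = 0.00353), with a log2 change of 1.51 without library 1. Thbs1, thrombospondin 1, was lower at 0.3 µM (952, 795 and 736 CPM) than with vehicle (2350.3, 1919.7 and 1641) and reached 4702, 1879.5 and 3315 at 1.0 µM (log2 2.00, SE 0.35, adjusted p = 0.000418). The smooth muscle genes Acta2 (log2 -0.17, adjusted p = 0.523) and Tagln (-0.01, adjusted p = 0.981) did not pass the test. Among 31 collagens and matrix genes 9 rose and 9 fell (29.0% each, against 21.8% and 27.8% of all genes), so that the lower share lay near that of all genes. The type I collagen gene Col1a2 fell from 1988, 2140.3 and 2032 to 771, 1177 and 977 CPM (log2 -1.07, SE 0.19, adjusted p = 0.00028), and Tnc, tenascin C, rose from 271, 256 and 267 to 919, 313 and 987 CPM, with library 2 well below the other 2 (log2 1.48, SE 0.41, adjusted p = 0.009). Without library 3 at 1.0 µM, 5 members of the matrix group rose.

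Of 26 inflammatory genes under NF-kB tested, 9 were higher (34.6%, against 21.8% of all genes) and 7 lower (26.9%, against 27.8%), so that the lower share lay near that of all genes. Il6, the cytokine interleukin 6, rose from 1.89, 1.08 and 0.927 to 17.9, 6.92 and 15.3 CPM (log2 3.36, SE 0.46, adjusted p = 3.54e-05), and Ptgs2, the inducible cyclooxygenase, from 158, 150.3 and 146 to 1092, 559.6 and 675 CPM (log2 2.36, SE 0.29, adjusted p = 2.55e-05). Nfkbiz, a nuclear co-factor for a subset of NF-kB targets, rose from 14.7, 13.7 and 11.8 to 83.0, 64.7 and 68.7 CPM (log2 2.43, SE 0.16, adjusted p = 1.46e-08). The chemokine gene Ccl2 (chromosome 11: 81849079 to 81850954) had 32.6, 31.1 and 33.1 CPM with vehicle, 82.2, 84.3 and 85.9 at 0.3 µM and 31.4, 24.98 and 34.5 at 1.0 µM, so that the higher dose lay at the level of vehicle (log2 -1.47, SE 0.17, adjusted p = 5.27e-06). Its neighbour Ccl7 went from 35.9, 38.4 and 37.7 to 73.9, 76.3 and 75.3 and then to 24.9, 26.5 and 25.2 CPM, which is below vehicle in every library (log2 -1.56, SE 0.16, adjusted p = 8.87e-07). Nfkbia, the inhibitor IkB alpha that NF-kB itself induces, followed the same course, with 40.6, 41.5 and 39.9, then 67.0, 67.3 and 64.1, then 29.9, 19.6 and 24.3 CPM (log2 -1.43, SE 0.14, adjusted p = 6.94e-07). Tnfaip3, another feedback gene of NF-kB, rose (log2 1.32, SE 0.17, adjusted p = 9.51e-06).

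Heat shock proteins refold or hold unfolded proteins, and heat shock factor binds repeats of GAA in inverted order in their promoters. The promoters of Hspb1 and Hspa1b are shown since these genes reached the highest levels among those raised by 4-fold or more in the step. GAANNTTC or TTCNNGAA, with overlaps counted, was found in 5 of 8 windows of the HSP90 and small HSP group (62.5%), 8 of 22 of the co-chaperones (36.4%) and 3 of 10 of the HSP70 group (30.0%), and in 17.0% of all genes. In the HSP90 and small HSP group, windows of Hspd1 and Hspe1 overlap on opposite strands, so that the same elements were counted for both. The windows lie at chr5:135887669-135887968, plus strand (Hspb1), and chr17:34959189-34959488, minus strand (Hspa1b), and capitals mark the element.
Hspb1: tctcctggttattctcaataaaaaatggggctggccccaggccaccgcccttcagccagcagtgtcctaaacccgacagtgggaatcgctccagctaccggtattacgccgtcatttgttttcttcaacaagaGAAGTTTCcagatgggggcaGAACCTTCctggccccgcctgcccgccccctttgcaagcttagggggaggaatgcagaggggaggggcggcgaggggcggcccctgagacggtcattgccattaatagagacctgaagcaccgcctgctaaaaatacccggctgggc
Hspa1b: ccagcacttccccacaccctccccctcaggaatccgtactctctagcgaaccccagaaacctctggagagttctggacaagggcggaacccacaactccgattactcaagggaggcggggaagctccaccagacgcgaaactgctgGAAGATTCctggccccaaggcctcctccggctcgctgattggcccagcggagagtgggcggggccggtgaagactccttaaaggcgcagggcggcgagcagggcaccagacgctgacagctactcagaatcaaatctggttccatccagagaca

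The inducible HSP70 genes Hspa1a and Hspa1b are near-identical copies between which fragments may be divided, so that each value is uncertain. Hspa1b (chromosome 17: 35093374 to 35096183) was counted at 23.5, 24.5 and 22.0 CPM with vehicle, 705, 519 and 646 at 0.3 µM and 3822, 4577 and 2763 at 1.0 µM (log2 2.58, SE 0.19, adjusted p = 5.66e-08). Hspa1a was counted at 122, 73.2 and 100.3 and then 1046, 756 and 619 CPM (log2 3.03, SE 0.29, adjusted p = 2.93e-06). The 2 doses did not overlap in either gene. Of 12 members of the HSP70 and HSP110 group, 6 rose and 2 fell (Hspa2 and Hspa12b, 0 to 2 when single libraries were left out). The testis HSP70 gene Hspa1l, next to them in the genome, was at 1.43, 1.90 and 1.92 CPM with vehicle and 1.59, 2.01 and 1.61 at 0.3 µM and rose only at 1.0 µM, to 5.69, 4.07 and 3.12 (log2 1.30, SE 0.22, adjusted p = 0.000124). Hsph1, an HSP110 exchange factor, rose from 2242, 1799 and 2181 to 5582, 6634 and 5752 CPM (log2 1.53, SE 0.10, adjusted p = 1.46e-08). The mitochondrial member Hspa9 did not pass (log2 -0.07, adjusted p = 0.429), and Hspa8 was not tested, since its values were missing in some libraries.

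Among small heat shock proteins and HSP90, 7 of 13 rose and 3 fell. Hspb1, which encodes HSP27 (chromosome 5: 136363789 to 136365433), had 19.4, 19.8 and 16.7 CPM with vehicle, 373, 252 and 385 at 0.3 µM and 2481, 2496 and 1756 at 1.0 µM (log2 2.74, SE 0.19, adjusted p = 4.85e-08). Cryab, alpha-B crystallin, rose from 32.4, 32.9 and 35.3 to 96.4, 85.2 and 72.4 CPM (log2 1.34, SE 0.29, adjusted p = 0.00165). Its change at the lower dose was log2 0.27 (adjusted p = 0.45, from the spread shared by all groups). In FPKM it stood at 37.3 ± 2.67 with vehicle and 47.8 ± 2.31 at 0.3 µM (SD, n = 3). The constitutive and inducible HSP90 genes Hsp90ab1 and Hsp90aa1 rose by log2 0.35 and 0.72. Per length, in the deposited FPKM, Hspb1 stood at 3215 ± 598 (SD, n = 3) at 1.0 µM, next to 4220 ± 373 for Hsp90ab1 and 3038 ± 413 for Hsp90aa1, and at 0.3 µM at 466 ± 103 next to 3200 ± 31.2 and 1781 ± 136. Hsf1, the master factor of the response, fell in its own transcript from 79.9, 82.8 and 74.5 to 44.8, 50.7 and 55.9 CPM (log2 -0.65, SE 0.08, adjusted p = 8.26e-06).

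Of 24 co-chaperones, 13 rose and 4 fell (2 to 4 when single libraries were left out). Dnaja4 rose from 78.7, 60.3 and 75.9 to 279, 338 and 218 CPM (log2 1.96, SE 0.14, adjusted p = 4.85e-08), Dnajb4 by log2 1.63, Dnajb1 by 1.06 and Bag3, the partner of small HSPs in aggregate clearance, by 0.97. The cytosolic chaperonin TRiC, which folds actin and tubulin, did not follow. At 0.3 µM all 8 subunits were above vehicle, and in the step 1 rose (Cct7) and 1 fell (Tcp1), with a median log2 change of 0.03 (-0.005 with scaling by library size only). With DESeq2 size factors 2 rose and 0 fell. The call of Cct7 was lost in 5 of the 6 fits that left out a library of these doses (all but library 3 at 1.0 µM), and that of Tcp1 in 4 of the 6 (all but library 2 at 1.0 µM and library 3 at 0.3 µM).

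The 20S proteasome core was lower in part, with 7 of 14 subunits lower and 0 higher and a median log2 change of -0.24. Psma5 fell from 50.5, 55.01 and 52.4 to 32.8, 35.6 and 35.0 CPM (log2 -0.61, SE 0.10, adjusted p = 7.99e-05), and Psma4 by 0.50 on the log2 scale. With DESeq2 size factors 6 were lower and 1 higher, and without library 3 at 1.0 µM 5 were lower and 2 higher. Of 19 subunits of the 19S regulator 1 was higher and 3 lower (3 and 1 with DESeq2 size factors), so that neither direction held under both scalings. These cells lack the small Maf partner of Nrf1, and its gene Nfe2l1 had 360.0, 373 and 393 CPM at 0.3 µM and 322, 294 and 329 at 1.0 µM (log2 -0.25, SE 0.13, adjusted p = 0.102). Of ubiquitin and p97 factors 7 of 22 rose (31.8%, against 21.8% of all genes) and 9 fell (40.9%, against 27.8%). With DESeq2 size factors, or with the 6 libraries alone, 9 rose and 6 fell. Zfand2a, an arsenite-inducible partner of the proteasome, rose from 302, 299.8 and 312 to 667, 748 and 749.7 CPM (log2 1.24, SE 0.08, adjusted p = 7.37e-09), and the polyubiquitin gene Ubb from 1043, 718 and 807 to 1430.3, 2447 and 1702 CPM (log2 1.12, SE 0.18, adjusted p = 9.3e-05). Vcp, which encodes p97, fell by 0.37 on the log2 scale.

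Transcripts counted to the deleted small Maf genes rose too. Maff (chromosome 15: 79177051 to 79189506) had 6.35, 5.14 and 5.51 CPM at 0.3 µM and 45.7, 34.1 and 35.8 at 1.0 µM (log2 2.76, SE 0.19, adjusted p = 2.55e-08), Mafk 2.93, 2.84 and 2.54 and 8.17, 8.03 and 5.71 (log2 1.40, SE 0.19, adjusted p = 1.63e-05), and Mafg 0.546, 0.489 and 0.634 and 0.958, 1.32 and 1.01 (log2 0.97, SE 0.36, adjusted p = 0.0345). The counts are per gene and do not show whether the fragments lie within the deleted part, so they are no check of the genotype. The call of Mafg was lost in 4 of the 6 fits that left out a library. Bach1, the repressor that shares these partners, rose from 75.1, 76.0 and 86.4 to 212, 153 and 198 CPM (log2 1.25, SE 0.12, adjusted p = 7.49e-07). In the list of 31 genes with antioxidant response elements 4 members rose (12.9%, against 21.8% of all genes) and 12 fell (38.7%, against 27.8%). TGACNNNGC was present in 8 of 24 of their windows (33.3%, against 14.0% of all genes). Hmox1, haem oxygenase 1, rose from 3451, 3206 and 3345 to 6886, 5093 and 7951 CPM (log2 0.99, SE 0.17, adjusted p = 0.000152).

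ATF4 and CHOP targets continued upward only in part. Of 20 members 8 rose (40%, against 21.8% of all genes) and 4 fell (20%, against 27.8%). When single libraries were left out, 2 to 4 fell. Atf3 had 4.56, 3.93 and 5.02 CPM with vehicle, 104, 85.9 and 105 at 0.3 µM and 259, 291 and 327 at 1.0 µM (log2 1.57, SE 0.09, adjusted p = 5.72e-09). Ppp1r15a, which encodes GADD34 and restores translation, rose from 149, 133 and 140.2 to 380.1, 264 and 282 CPM (log2 1.13, SE 0.13, adjusted p = 2.42e-06). The factors Atf4 (log2 -0.36, SE 0.09, adjusted p = 0.00367) and Ddit3, which encodes CHOP (log2 -0.33, SE 0.10, adjusted p = 0.0105), fell. TGATGNAAN, the core of the site shared by ATF4 and C/EBP proteins, was found in 6 of 20 windows (30.0%) and in 4.50% of all genes. Amino acid supply genes had 5 of 21 higher and 6 lower after 17 of 21 had been above vehicle at 0.3 µM. Their shares of 23.8% and 28.6% lay near the 21.8% and 27.8% of all genes. With DESeq2 size factors 7 were higher and 4 lower, and with the 6 libraries alone 5 and 2, so that which direction held more members depended on the scaling and the libraries fitted.

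Endoplasmic reticulum chaperones and folding enzymes lay lower at the higher dose: 14 of 24 fell and 2 rose, with a median log2 change of -0.26. With DESeq2 size factors, or with the 6 libraries alone, 9 fell. Calr, calreticulin, fell from 2658, 2602 and 2369 to 1834, 1789 and 1282 CPM (log2 -0.64, SE 0.15, adjusted p = 0.00166), and Xbp1, the factor spliced by IRE1, from 67.5, 70.3 and 71.0 to 41.1, 34.5 and 46.2 (log2 -0.78, SE 0.10, adjusted p = 1.34e-05). Ern1, which encodes IRE1 alpha, and Dnajb9, an early target of spliced XBP1, rose by log2 0.76 and 0.82. Hspa5, the main chaperone BiP, did not pass (log2 -0.23, adjusted p = 0.373), with 2616, 1737 and 1639 CPM at 1.0 µM against 2415, 2310.3 and 2314 at 0.3 µM.

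Genes of mitosis were lower in nearly the whole group. Of 30 members 26 fell and 0 rose, with a median log2 change of -0.50 (1 rose, and 25 fell, under DESeq2 size factors). Aurkb, a kinase of chromosome alignment (chromosome 11: 68859145 to 68865164), fell from 48.3, 53.2 and 54.4 to 19.9, 24.9 and 22.2 CPM, with no overlap (log2 -1.22, SE 0.12, adjusted p = 7.28e-07). Ccnb1, the mitotic cyclin B1, went from 133, 142 and 139 CPM with vehicle to 92.7, 104 and 90.2 and then to 42.5, 45.7 and 41.5 (log2 -1.14, SE 0.10, adjusted p = 1.83e-07). Genes of DNA replication did not fall with them: 13 of 33 rose (39.4%, against 21.8% of all genes) and 3 fell (9.09%, against 27.8%). When single libraries were left out, 8 to 14 rose and 1 to 3 fell. Mcm10, a factor of replication initiation, rose from 169.7, 155 and 151 to 242, 257 and 219.7 CPM (log2 0.60, SE 0.09, adjusted p = 4.34e-05). The G1 cyclin gene Ccnd1 fell from 209, 189.9 and 224 to 108, 157 and 94.4 CPM (log2 -0.79, SE 0.24, adjusted p = 0.0131), but not without library 1 or library 3 at 1.0 µM.

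Cholesterol and fatty acid synthesis also had mostly lower members, 24 of 32 against 0 higher, and a median log2 change of -0.49. Without library 1 at 1.0 µM 16 fell, and without library 3 there 27 fell. Scd2, a stearoyl-CoA desaturase (chromosome 19: 44368166 to 44381352), had 1662, 2004 and 1877 CPM with vehicle, 871, 1124 and 1064 at 0.3 µM and 211, 419 and 413 at 1.0 µM (log2 -1.55, SE 0.31, adjusted p = 0.00112). Acat2 fell from 51.4, 62.4 and 53.6 to 16.5, 29.2 and 24.9 CPM (log2 -1.24, SE 0.18, adjusted p = 3.52e-05). TCACNCCAC, a sterol element core, was in 0 of 22 windows and in 1.44% of all genes.

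Of 75 oxidative phosphorylation genes 47 fell and 0 rose, with a median log2 change of -0.30. The highest fitted log2 change of a member, 8.34, was not called. With DESeq2 size factors 38 fell and 1 rose, and with the 6 libraries alone 35 fell and 1 rose. Cox7b, a subunit of cytochrome c oxidase, fell from 47.5, 49.6 and 42.1 to 24.3, 22.8 and 19.8 CPM (log2 -1.06, SE 0.12, adjusted p = 4.32e-06). Cytosolic ribosomal protein genes fell in 30 of 80 members (37.5%, against 27.8% of all genes) and rose in 2 (2.5%, against 21.8%). With DESeq2 size factors, or with the 6 libraries alone, 24 fell. The gene Rpl26, among those that rose, was split by library, at 1.19, 1.22 and 1.17 CPM at 0.3 µM and 9.30, 11.6 and 58.8 at 1.0 µM (log2 4.47, SE 1.23, adjusted p = 0.00876), and its reads may be divided among processed copies, so that it is uncertain. Its call was lost without library 3 at 1.0 µM. Mitochondrial ribosomal protein genes fell in 33 of 77 (42.9%) and rose in 6 (7.79%, and 2 members without library 2 at 0.3 µM). With DESeq2 size factors 27 of them fell, and with the 6 libraries alone 22. Ribosome biogenesis genes, 23 of 30 of which were above vehicle at 0.3 µM, had 5 higher and 10 lower in the step (3 higher without library 1 at 0.3 µM, and 6 lower without library 1 at 1.0 µM). These are shares of 16.7% and 33.3%, against 21.8% and 27.8% of all genes.

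Rises were ranked by log2 change among genes called, without overlap between the doses and at a mean of 1 CPM or more over the 6 libraries. The largest were of genes close to 0 at the lower dose. A ranking by ratio favours such genes, and some reach the mean only through the libraries at 1.0 µM. Their low start is therefore no result. Prdm1, the repressor Blimp-1 (chromosome 10: 44156980 to 44178554), had 0.0496, 0.147 and 0.0488 CPM at 0.3 µM and 8.91, 4.75 and 4.46 at 1.0 µM (log2 6.10, SE 0.58, adjusted p = 5.45e-07), and the log2 change was 6.76 without library 2 at 0.3 µM. Dntt, the template-independent polymerase of lymphocytes, had 2 fragments at 0.3 µM and 144 at 1.0 µM over 3 libraries each, a ratio of 76.5 (exact 95% interval 20.8 to 637, counting error only). Its values at 1.0 µM were 4.85, 0.634 and 2.21 CPM, and its fitted log2 change of 6.03 was 5.25 without library 1 there. Without library 3 at 0.3 µM no fragment was left at that dose and the fit gave 8.68, which depends on the prior count. Anxa10, an annexin, had 3 and 123 fragments, a ratio of 43.5 (14.6 to 214). Lce1f, a gene of the cornified envelope, had 3 and 180 fragments, a ratio of 63.7 (21.5 to 312), with 6.43, 1.64 and 1.68 CPM at 1.0 µM, highest in library 1, and its log2 change of 5.86 was 4.95 without that library. Without library 1 at 0.3 µM, which held its 3 fragments at that dose, the fit gave 9.02. Of the remaining genes in that ranking, Oas2, Oas3 and Ifi44 are interferon-stimulated. Oas2, a sensor of double-stranded RNA, had 8.79, 1.27 and 14.3 CPM at 1.0 µM, and Ifi44 had 12.5, 1.00 and 16.4, with the same order of libraries as the group above. Their log2 changes were 5.45 and 5.31, and 6.29 and 6.28 without library 1 at 0.3 µM.

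Among genes that the lower dose moved by less than 0.25 on the log2 scale and the step by 2-fold or more, 3 of the 8 with the largest rise are also known interferon targets. These are Irgm2, an immunity-related GTPase (log2 3.97, SE 1.00, adjusted p = 0.00532), Phf11d (log2 3.66, SE 0.98, adjusted p = 0.00748) and Sp100, a nuclear body protein (log2 3.07, SE 0.93, adjusted p = 0.0146), whose call was lost without library 3 at 1.0 µM or libraries 2 or 3 at 0.3 µM. The others are not. Has1, a hyaluronan synthase, had 0.276, 0.231 and 0.548 CPM with vehicle, 0.347, 0.294 and 0.585 at 0.3 µM and 5.47, 3.27 and 4.99 at 1.0 µM (log2 3.46, SE 0.46, adjusted p = 1.36e-05). Dio2, the enzyme that activates thyroid hormone, rose from 0.695, 0.734 and 0.634 to 7.33, 4.54 and 6.09 CPM (log2 3.11, SE 0.39, adjusted p = 8.12e-06). Sema6a, a transmembrane semaphorin, rose from 3.08, 1.81 and 3.17 to 43.6, 17.8 and 33.1 CPM (log2 3.55, SE 0.45, adjusted p = 2.61e-05), and Ccdc71l from 13.5, 11.5 and 12.6 to 109.7, 74.2 and 91.7 (log2 2.87, SE 0.23, adjusted p = 2.35e-07).

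Transcripts of fast skeletal muscle, present at a low level up to 0.3 µM, fell to near 0 at 1.0 µM. Mylpf, a fast myosin light chain (chromosome 7: 134355122 to 134357801), had 2.81, 2.31 and 2.37 CPM with vehicle, 2.73, 2.15 and 3.90 at 0.3 µM and 0.169, 0.264 and 0.240 at 1.0 µM (log2 -3.66, SE 0.33, adjusted p = 3.11e-07). Myh4, a fast myosin heavy chain, had 2.98, 3.38 and 2.58 and then 0.451, 0.264 and 0.0480 CPM (log2 -3.57, SE 0.61, adjusted p = 0.000174, and -4.21 without library 1 at 1.0 µM). Atp2a1, the calcium pump of the sarcoplasmic reticulum, had 2.43, 1.91 and 1.95 and then 0.113, 0 and 0.144 CPM (log2 -4.50, SE 0.55, adjusted p = 6.67e-06, and -5.12 without library 3 at 1.0 µM). Myl1 had 98 fragments at 0.3 µM and 2 at 1.0 µM over 3 libraries each, a level 46.1 times lower (exact 95% interval 12.4 to 386, counting error only). Ckm, muscle creatine kinase and a marker in the list of muscle genes, had 75 and 0 fragments, at least 23.5-fold lower with 3 fragments over the group as the limit.

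None of these 5 genes was called at 0.3 µM against vehicle (Mylpf log2 0.23, adjusted p = 0.424). In T-N1G cells, which are separate libraries, Mylpf had 2.03, 2.28 and 2.53 CPM at 0.3 µM and 0.246, 0.113 and 0.433 at 1.0 µM, and Atp2a1 had 1.44, 3.49 and 2.01 and 0, 0.282 and 0.163. The muscle regulators Myod1 and Myog had 0 and 2 fragments at 0.3 µM and 2 and 0 at 1.0 µM. The whole list of 8 muscle markers had 1 of 5 tested members higher and 3 lower, and its summed level went from between 17.08 and 19.01 CPM to between 30.8 and 66.7, with cardiac troponin T, Tnnt2, going from 14.0, 13.0 and 12.2 to 65.7, 31.3 and 30.0 CPM (log2 1.69, SE 0.25, adjusted p = 5.18e-05). The part of other cells in these values was not tested. Among endothelial markers Kdr, the VEGF receptor, rose from 20.8 ± 3.51 to 71.5 ± 12.1 CPM (mean ± SD, n = 3 a dose, log2 1.78, SE 0.18, adjusted p = 8.45e-07), while Erg had 0 fragments at both doses. Of the 8 endothelial markers 3 of 5 tested were higher and 0 lower, and their summed level went from between 18.6 and 26.1 to between 64.6 and 87.4 CPM. Of the 12 epithelial markers 4 of 7 tested were higher (the keratins Krt8, Krt18 and Krt19, and Cldn4) and 1 lower (Ocln, log2 -0.76, SE 0.31, adjusted p = 0.0499), and their summed level, most of it Krt19, went from between 262 and 304.1 to between 336 and 484 CPM. Krt8 rose from 1.54, 1.52 and 1.71 to 6.54, 6.55 and 11.1 CPM (log2 2.34, SE 0.32, adjusted p = 1.95e-05), and Krt14 did not pass (log2 -0.13, adjusted p = 0.664).

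The largest falls also included counts that may be shared with near-identical genes. Oaz1-ps, a pseudogene of antizyme, had 196, 220.1 and 189 CPM at 0.3 µM and 0, 0 and 34.1 at 1.0 µM, and lost its call without library 1 at 1.0 µM (adjusted p = 0.0559) and among the 6 libraries alone (0.097). Without library 3 at 1.0 µM no fragment was left at that dose. Rps15a-ps6 (-2.14) and Rpl37rt (-1.85), retrocopies of ribosomal protein genes, fell on the log2 scale and are equally uncertain. Aldh1a1, retinaldehyde dehydrogenase, continued a fall that had begun at the lower dose, from 17.2, 15.0 and 10.9 CPM with vehicle to 2.68, 1.91 and 1.80 and then 0.564, 0.634 and 0.432 (log2 -1.97, SE 0.27, adjusted p = 1.99e-05). Lama1, a laminin chain, was called only in the step, from 7.74, 6.31 and 4.63 to 2.59, 1.21 and 2.73 CPM (log2 -1.51, SE 0.26, adjusted p = 0.000181).

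A reversal was sought as a gene called in 1 direction at 0.3 µM against vehicle and in the other in the step. These comparisons share the libraries at 0.3 µM, so that an error in those libraries moves both in opposite directions, and the values are given side by side as a description. Besides Ccl2 and Ccl7, the receptor gene Pdgfra had 52.7, 48.9 and 58.0 CPM with vehicle, 110.1, 109 and 115 at 0.3 µM and 55.9, 46.5 and 63.7 at 1.0 µM, where the last group overlaps the first (log2 -1.01, SE 0.17, adjusted p = 0.000194). Afap1l2, an adaptor of Src signalling, also turned back, with 21.3, 17.4 and 17.5, then 36.6, 33.4 and 40.1, then 12.5, 16.6 and 17.1 CPM, and ended below vehicle in every library. Snhg5, the host of small nucleolar RNAs, lost part of its rise, with 21.1, 19.2 and 18.8, then 105, 117 and 95.5, then 60.9, 43.3 and 59.9 CPM (log2 -0.95, SE 0.12, adjusted p = 1.02e-05).

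In the other direction, Nrp1, a co-receptor of semaphorins and VEGF (chromosome 8: 130882973 to 131029375), fell from 48.2, 43.2 and 48.4 CPM with vehicle to 17.97, 13.0 and 16.8 at 0.3 µM and stood at 66.0, 48.6 and 51.8 at 1.0 µM (log2 1.80, SE 0.12, adjusted p = 1.46e-08). Tm4sf1, a tetraspanin-like membrane protein, had 119.5, 115 and 116, then 38.4, 32.1 and 41.4, then 119.5, 120.3 and 103 CPM (log2 1.62, SE 0.11, adjusted p = 2.01e-08). The 1.0 µM libraries overlapped vehicle for Tm4sf1 and lay just above it for Nrp1, and in both genes they stood clear of 0.3 µM. Cxcl12, a homing chemokine of stromal cells, regained only part of its level, with 954, 944 and 936, then 295, 298 and 291, then 711, 656 and 768 CPM (log2 1.27, SE 0.11, adjusted p = 1.37e-07). Fat4, an atypical cadherin of the Hippo pathway, lay above every vehicle library in 2 of 3 libraries, with 6.26, 5.05 and 7.94, then 2.08, 1.47 and 1.71, then 16.1, 5.49 and 12.2 CPM (log2 2.68, SE 0.40, adjusted p = 6.19e-05). Prkg2, a cGMP-dependent kinase, did so in all 3 (12.1, 14.4 and 13.0, then 4.07, 4.36 and 4.78, then 20.01, 16.8 and 15.8 CPM).

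For other genes changed at 0.3 µM, the 95% interval of the step lay within 0.5 of 0 on the log2 scale. Sqstm1, the autophagy receptor p62, had 226, 263 and 226 CPM with vehicle, 1138, 1145 and 1149 at 0.3 µM and 977, 1028 and 997 at 1.0 µM, a step of log2 -0.19 (95% interval -0.36 to -0.02, adjusted p = 0.0561). Every library of Sqstm1 at 1.0 µM lay below every one at 0.3 µM, and it was called lower with the replicate number as a block (adjusted p = 0.0487) and with scaling by library size only (0.0157). Ciart, a repressor of the circadian clock, had 4.61, 5.88 and 4.75, then 26.9, 28.7 and 27.8, then 29.1, 28.6 and 26.2 CPM (interval -0.19 to 0.20). Slc3a2, the heavy chain of amino acid exchangers, rose to 599.7, 596 and 611 CPM at 0.3 µM from 173, 178 and 162 and stood at 722, 537 and 778 (interval -0.15 to 0.49). Among genes lowered at 0.3 µM, Anxa1, annexin A1, had 453, 478 and 421, then 111, 113 and 116, then 104, 159.5 and 101 CPM (interval -0.25 to 0.45), and Cdon, a co-receptor of hedgehog, 99.9, 94.9 and 113, then 28.0, 29.0 and 31.4, then 26.9, 27.7 and 29.4 (interval -0.25 to 0.10).

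**Figure D4:**
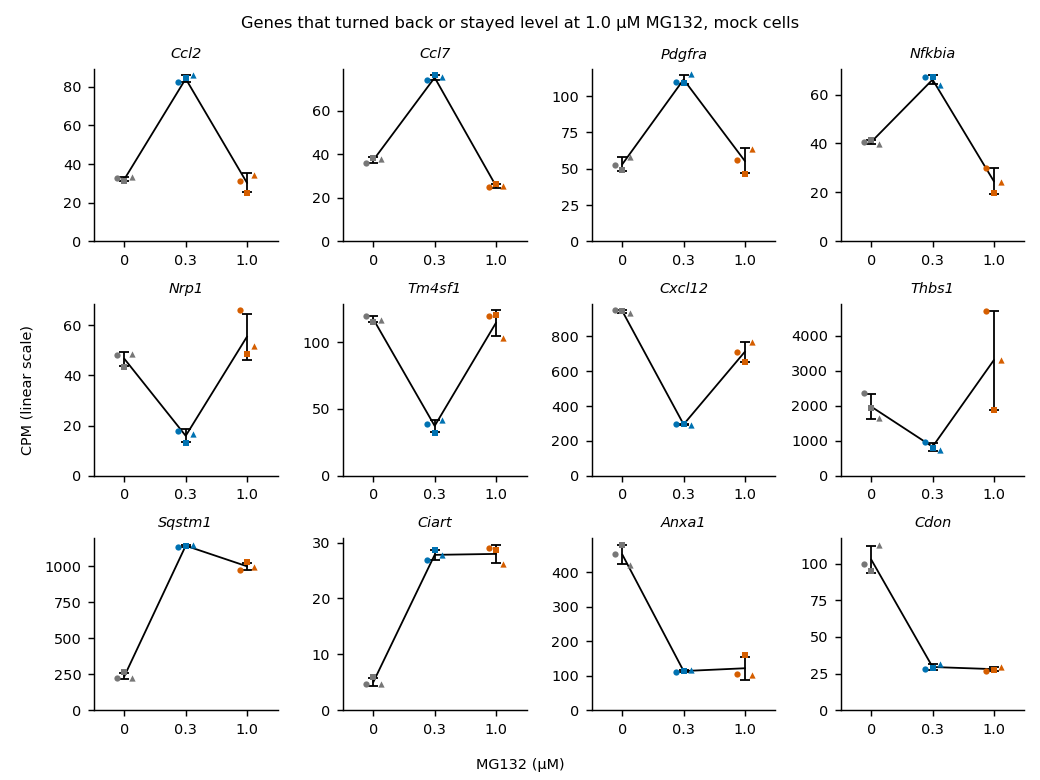
CPM on a linear scale at 0, 0.3 and 1.0 µM MG132 for 8 genes that turned back in the step and 4 whose 95% interval lay within 0.5 of 0; markers are libraries 1 (circle), 2 (square) and 3 (triangle), and lines join means with SD bars (n = 3). Ccl2 and Pdgfra at 1.0 µM lie at the level of vehicle, Nfkbia lies below it, and Sqstm1 at 1.0 µM lies slightly below 0.3 µM in every library.

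Against vehicle, 4292 genes were higher at 1.0 µM (32.4%) and 4952 lower (37.4%), and at 0.3 µM 3310 were higher and 3730 lower. Interferon-stimulated genes had 17 of 24 higher and 1 lower at 1.0 µM against vehicle, a comparison that shares the libraries at 1.0 µM with the step.

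The same step in T-N1G cells rests on other libraries, and the difference between the lines was tested directly. The log2 step in T-N1G minus that in mock was positive for 914 genes (6.89%) and negative for 742 (5.60%), a total of 1656. A positive difference can be a larger rise or a smaller fall in T-N1G cells. The total ran from 1041 to 2805 when single libraries were left out. It was 1041 without library 1 and 1055 without library 2 of mock at 0.3 µM, and 2805 without library 2 of T-N1G at 1.0 µM. For Usp18 the difference did not pass, at log2 -1.43 (SE 1.29, 95% interval -4.20 to 1.35, adjusted p = 0.516). With the replicate number as a block 2190 genes differed, 1139 with a positive and 1051 with a negative difference, and the value for Usp18 was -1.30 (adjusted p = 0.367). Of the 17 interferon-stimulated genes called in mock cells, 0 differed between the lines in either edgeR fit or in the DESeq2 Wald test, and 1 (Rsad2, log2 2.19) had an unadjusted p under 0.05 in each. Rsad2 was called without library 3 of mock or library 2 of T-N1G at 1.0 µM. Same-numbered libraries of the lines deviated together at 1.0 µM, with correlations of their deviations from the group means, over genes, of 0.585, 0.646 and 0.776 for libraries 1, 2 and 3, given as a description. The 17 genes called in mock cells were highest in library 3 in all 17 and lowest in library 2 in 16 of 17 at 1.0 µM in T-N1G cells too, where Usp18 had 3.96, 1.11 and 2.53 CPM at 0.3 µM and 15.8, 5.75 and 41.5 at 1.0 µM.

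Some genes stepped differently in the lines by that test. Myo18b, an unconventional myosin, rose in mock cells from 0.744, 0.245 and 0.585 to 6.03, 6.92 and 15.8 CPM and had 7.13, 7.29 and 7.31 and 8.84, 5.52 and 10.3 in T-N1G cells (difference log2 -4.00, SE 0.54, adjusted p = 0.000275). Sema3e, a secreted semaphorin, rose in mock cells from 11.8, 11.4 and 12.1 to 38.8, 50.8 and 34.8 CPM against 4.71, 6.73 and 9.07 and 5.22, 7.50 and 3.52 in T-N1G cells (difference -2.16, adjusted p = 0.000993). Tfap2a, the factor AP-2 alpha, rose in mock cells by log2 1.78 and fell in T-N1G cells by 0.85. Ccl2, which fell in mock cells, had 31.1, 27.7 and 20.8 and 28.7, 19.4 and 34.9 CPM in T-N1G cells (difference 1.53, adjusted p = 0.000933). In the other direction, Hspa1a rose more in T-N1G, from 36.7, 39.1 and 25.2 to 1628, 818 and 795 CPM (difference 1.97, adjusted p = 0.00603), from a lower level at 0.3 µM. Nfe2l1 fragments of the tether and of the endogenous gene cannot be told apart in T-N1G cells, which had 4986, 4914 and 4012 and 21501, 14845 and 14686 CPM.

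**Figure D5:**
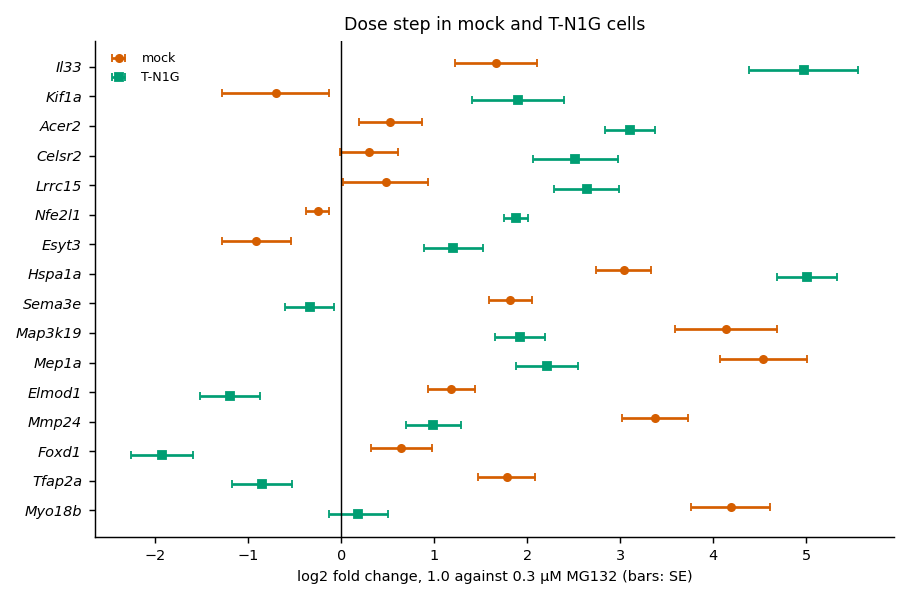
Log2 fold change from 0.3 to 1.0 µM MG132 in mock (orange circles) and T-N1G cells (green squares), with bars of 1 SE, for 16 genes at 1 CPM or more, the 8 with the largest difference between the lines in each direction. Myo18b, Sema3e and Mmp24 rose more in mock cells, and Il33, Acer2 and Hspa1a more in T-N1G cells.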

How the data were processed

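Polyadenylated RNA of the 18 libraries was sequenced with a strand-specific kit, per the labels' protocols. The submitters' processing notes name TopHat2 2.0.8b, Cuffdiff 2.1.1 and build mm9. The annotation, and whether the counting used strand, are not given in the labels or headers. The deposited table holds estimated counts of fragments per gene and library (98.16 to 98.51% whole within 1e-06) and FPKM, both made by Cuffdiff per the file headers. Its condition names and replicates 0 to 2 were read as the labelled groups and libraries 1 to 3, a link that the file does not state. Of 24318 genes, 2, Hspa8 among them, were left out because the table marks them as unprocessed in some libraries. A few genes that entered the fit and the counts are not reported here by name.

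Counts were rounded, filtered by filterByExpr (13258 genes kept) and scaled by TMM. All 18 libraries entered 1 quasi-likelihood fit of 6 group means (edgeR 4.0.16, R 4.3.3), with Benjamini-Hochberg adjusted p under 0.05 as a call. The fit was tested on simulated data with the same dispersion in all genes and groups. That test therefore does not cover the wider spread at 1.0 µM. Alternatives used DESeq2 1.42.0 and limma 3.58.1. Same-numbered libraries of the mock doses deviated together over genes (r = 0.264, 0.121 and 0.208, against -0.198 to -0.002 for other numbers). Deviations from a group mean cancel out, so a positive r for same numbers in itself pushes the others down. The numbers were taken to pair the libraries. Even so, each SE, interval and adjusted p is from the fit without that block, except where the block or another alternative is named.

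The members, gene lists and rules were chosen with earlier results of these data known. The rule named the 10 largest changes in each direction among genes called, at 1 CPM or more and without overlap between the doses. It also named 2 called members of each list and direction. At 1 CPM or more it named 8 genes for each turn, each change seen in the step alone, each level course and each direction of difference between lines. Other list members are named for their role and were chosen after their values were seen.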

Additional observations from a re-analysis of the deposited data

Results flagged for a closer look

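The dose step differed between T-N1G and mock cells for 1656 genes, by the test of the difference itself in edgeR's quasi-likelihood model. Differences are T-N1G minus mock on the log2 scale. Among chaperones the step was larger in T-N1G for Hspa1a (1.97), Hspa1b (1.15) and Cryab (1.43), of which the HSP70 copies are uncertain. Among genes that turned back in mock cells it differed for Ccl2 (1.53), Ccl7 (1.56), Pdgfra (1.16) and Tm4sf1 (-1.03). Aldh1a1 (1.28) and the proton pump subunit Atp6v0a1 (1.31) had a less negative or higher step in T-N1G, and Btc (-2.01), Dio2 (-2.09) and Prkar2b (-1.11) a lower one.

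Among the genes with the largest differences at 1 CPM or more, the difference was positive for Il33 (3.31), Kif1a (2.60), Acer2 (2.58), Celsr2 (2.22), Lrrc15 (2.16), Nfe2l1 (2.13, tether included) and Esyt3 (2.12). It was negative for Myo18b (-4.00), Tfap2a (-2.63), Foxd1 (-2.57), Mmp24 (-2.38), Elmod1 (-2.38), Mep1a (-2.33), Map3k19 (-2.22) and Sema3e (-2.16). Single libraries ended the calls of Kif1a, Lrrc15, Map3k19, Mep1a and Celsr2 when left out. Without library 2 of T-N1G at 0.3 µM the difference of Il33 was 3.92. Mep1a, a meprin protease, had 0.0993, 0.0979 and 0.0975 CPM at 0.3 µM and 1.30, 3.59 and 2.35 at 1.0 µM in mock cells.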

How the results depend on the processing

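The step called 6577 genes. No called change of a named gene turned its direction, but scaling by library size or DESeq2 size factors, the 6 libraries alone or a library left out turned the sign of the medians nearest 0, those of TRiC, amino acid supply, tRNA synthetases, autophagy, lysosome, p53, metal and iron genes. Single libraries left out gave 5335 to 6505 calls in the step, 6135 to 6289 at 0.3 µM against vehicle, 8679 to 9166 at 1.0 µM against vehicle and 1041 to 2805 for the difference between lines. That last count, 1656, was 1034 with limma voom and sample quality weights 699 among the 12 MG132 libraries alone, 2190 with the replicate block and 2145 with the DESeq2 Wald test, and the cause was not tested. With the replicate block the step called 7022 genes (3074 higher and 3948 lower), and of the named genes' calls it changed that of Sqstm1, at log2 -0.19, which then passed the test. Of 187 genes named for the step, 2056 alternative values held 1973 on the same side of the threshold, 79 that lost the call and 4 that gained it. The 3 libraries at 1.0 µM limit the precision, and the annotation limits genes with near-identical copies.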
